A study of Mus musculus with 34 samples.

Results

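The comparison described here sets YFP+CD25+ thymocytes with both alleles of Bcl11b floxed (Bcl11b flx/flx Vav1-iCre, HOM) against the same sort with 1 floxed and 1 intact allele (Bcl11b flx/+ Vav1-iCre, HET). Its members are the 3 HOM and 4 HET libraries, 7 of the 34 libraries of the series, chosen by genotype and Cre line as the labels give them, and 2 further libraries with intact alleles (Bcl11b +/+ Vav1-iCre, WT) serve as a reference. The series asks what Bcl11b does in early T-cell precursors, which carry neither CD4 nor CD8 (double-negative, DN), and repeats the genotype contrast with Lck-Cre. Cells of all groups were DN thymocytes of the strain C57BL6/J, the labels give no age, and all Vav groups carry the Cre transgene, so HOM and HET differ in the number of floxed alleles and not in Cre. RNA of 300000 cells per library was sequenced, and the reads were counted per gene over its exons.

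Bcl11b is a zinc-finger transcription factor that thymocytes switch on as they commit to the T lineage. It is known to hold back natural killer (NK) and innate lymphoid programmes, among them the genes Id2, whose product binds E proteins and keeps them from DNA, and Zbtb16, which encodes PLZF, a factor of innate-like lymphocytes. Vav1-iCre is active from the blood stem cell onward, in all its descendants, so the floxed alleles can be lost before cells enter the thymus, whereas Lck-Cre acts later, inside the thymus. CD25 is the surface receptor chain by which DN2 and DN3 thymocytes are sorted, and the yellow fluorescent protein (YFP) marks cells in which Cre has acted.

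The deposited Vav table holds 2076 genes and was selected by the authors on these same libraries, with HOM set against WT and HET pooled, per the file headers. Every one of the 2076 genes was therefore past the threshold in HOM against HET (adjusted p under 0.05, edgeR quasi-likelihood test, 100% called, adjusted p from 7.47e-08 to 0.0385), and such p-values are not independent evidence. What the Vav libraries can show is which listed genes moved, in which direction, how far, and how closely libraries agree. The Lck-Cre libraries, on which the table was not selected, give a test. There the HET libraries used are labelled DN3 and the HOM libraries carry no stage label, so genotype and stage cannot be told apart. The selection also favours large changes and libraries that agree, so sizes and overlaps in Vav are descriptions of the listed genes. A gene with no row is not known to be unchanged. Levels are normalised counts (counts divided by a scale factor per library), and they compare libraries within a gene but not genes with each other. Changes are log2 values of HOM minus HET with their standard error (SE). The 7 libraries hold 1329826 to 1842060 counts over the listed genes, and their full depth is unknown. No label ties a library to an animal of its own, and the spread behind each p-value is that between libraries, which may be technical.

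Some libraries stood apart before any comparison. In HET replicate 4, 8.25% of 1237 well-counted genes were at least 2-fold from the other HET libraries, against 0.323% to 1.62% in HET replicates 1 to 3. Over 1190 genes the deviation of HET replicate 4 lay on the same side as that of WT in 72.8%, against 44.8% to 54.8% for the other HET libraries. The immediate-early and heat-shock genes also differed widely within HET, as given below. In the Lck series, HET DN3 library 1 carried mature T-cell transcripts (Cd4 at 82.1 RPKM, a level scaled to gene length and library size, against 0.412 to 11.8 in the other 5 HET DN3 libraries). Markers of the sort and stage were only partly checkable, since Il2ra (the gene of CD25), Ptcra, Thy1, Il7r and Notch1 have no row among the listed genes, while Kit and Cd3e, which DN thymocytes express, were present in every library.

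Of the 2076 genes, 972 (46.8%) were higher and 1104 (53.2%) lower in HOM. With the size factors of DESeq2, which move the median change of all listed genes by 0.83 on the log2 scale, 964 were called higher and 768 lower (55.7% higher). The median change was 4.28-fold among the higher genes and 3.76-fold among the lower genes. A change of at least 2-fold was found for 1989 genes (95.8%), and of at least 4-fold for 1036 (49.9%), of which 181 higher and 120 lower genes changed at least 16-fold. For 2031 genes (97.8%) no HOM library overlapped any HET library. The shares with a 2-fold change and without overlap follow in part from the authors' selection. The HET mean lay between the WT and HOM means for 738 of the 972 higher and for 753 of the 1104 lower genes. The WT mean rests on 2 libraries, and the share that spread between libraries alone would give was not computed. A graded effect of 1 floxed allele was thus not tested.

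Bcl11b itself (chromosome 12, 109148613 to 109241624, minus strand, build mm9) stood at 8476, 8297 and 7745 normalised counts in HOM replicates 1 to 3, and at 18576, 20171, 23463 and 19040 in HET replicates 1 to 4. The 2 WT libraries had 29892 and 17453. All HOM libraries lay under all HET libraries, with 40.2% of the HET mean left, a log2 change of -1.31 (SE 0.19, edgeR adjusted p = 8.37e-05). Reads were counted over all exons and the labels do not name the floxed part, so reads from the rest of the gene remain countable after deletion and the fall is a limited check of the genotype. In the Lck series Bcl11b fell from 105.3 ± 12.2 RPKM in HET DN3 (SD, n = 6) to 52.0 ± 11.03 in HOM (SD, n = 5), a log2 change of -1.02 (SE 0.12, edgeR adjusted p = 1.25e-06).

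Id2 and Zbtb16, which the study's title names as genes that Bcl11b represses, were both higher in HOM. Id2 (chromosome 12, 25778664 to 25780957) had 2363, 2443 and 1923 normalised counts in HOM, 316, 265, 273 and 252 in HET, and 150 and 182 in WT. The HOM mean was 8.11-fold the HET mean (log2 change 3.02, SE 0.17), and the 3 groups did not overlap, with WT lowest. Zbtb16 (chromosome 9, 48462402 to 48644050) had 3768, 4402 and 3029 in HOM, 107, 81.2, 79.6 and 19.4 in HET, and 28.7 and 46.1 in WT. Its mean ratio was 52.1 (log2 change 5.71, SE 0.45), with HET replicate 4 under both WT libraries. In the Lck series Zbtb16 rose from 0.118 ± 0.0557 to 18.6 ± 3.26 RPKM (SD, n = 6 and 5; log2 change 7.30, edgeR adjusted p = 2.32e-10). Id2 went from 19.4 ± 16.0 to 56.7 ± 6.75 RPKM there and missed the threshold (log2 change 1.55, edgeR adjusted p = 0.0506), with HET DN3 libraries from 6.54 to 49.4 RPKM. Differences between the series use the selected Vav values, which favour a larger Vav change. The changes of Id2 and Zbtb16 in the Vav and Lck series differed by 1.47 and -1.59 on the log2 scale, and neither difference passed the threshold (edgeR adjusted p = 0.204 and 0.0976). For Zbtb16 it passed without HET replicate 4 (-1.94, edgeR adjusted p = 0.0423).

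Dapl1 and Npffr1 went from near the detection limit to abundant transcripts. Dapl1 (chromosome 2, 59322710 to 59343078) had 6937, 4472 and 5838 normalised counts in HOM against 3.76, 0, 17.8 and 21.5 in HET and 4.19 and 64.8 in WT. The HOM mean was 534-fold the HET mean. Npffr1 (chromosome 10, 61058232 to 61089133), the gene of a G-protein-coupled neuropeptide FF receptor, had 764, 675 and 636 in HOM, and only 2 reads in all 4 HET libraries together. The ratio was 1273 with a 95% counting interval (exact binomial, counting error only) of 352 to 10518. Each HOM library exceeded each HET library for both genes. In the Lck series Dapl1 and Npffr1 rose too, by 9.02 and 7.72 on the log2 scale (edgeR adjusted p = 2.46e-07 and 3.95e-08). Exact 2-sided permutation tests over the 7 Vav libraries gave p = 0.0286 for each of Bcl11b, Id2, Zbtb16, Dapl1 and Npffr1, the smallest that 35 splits allow and the same after adjustment over the 5 genes, and they share the limit of the selected table.

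**Figure D1:**
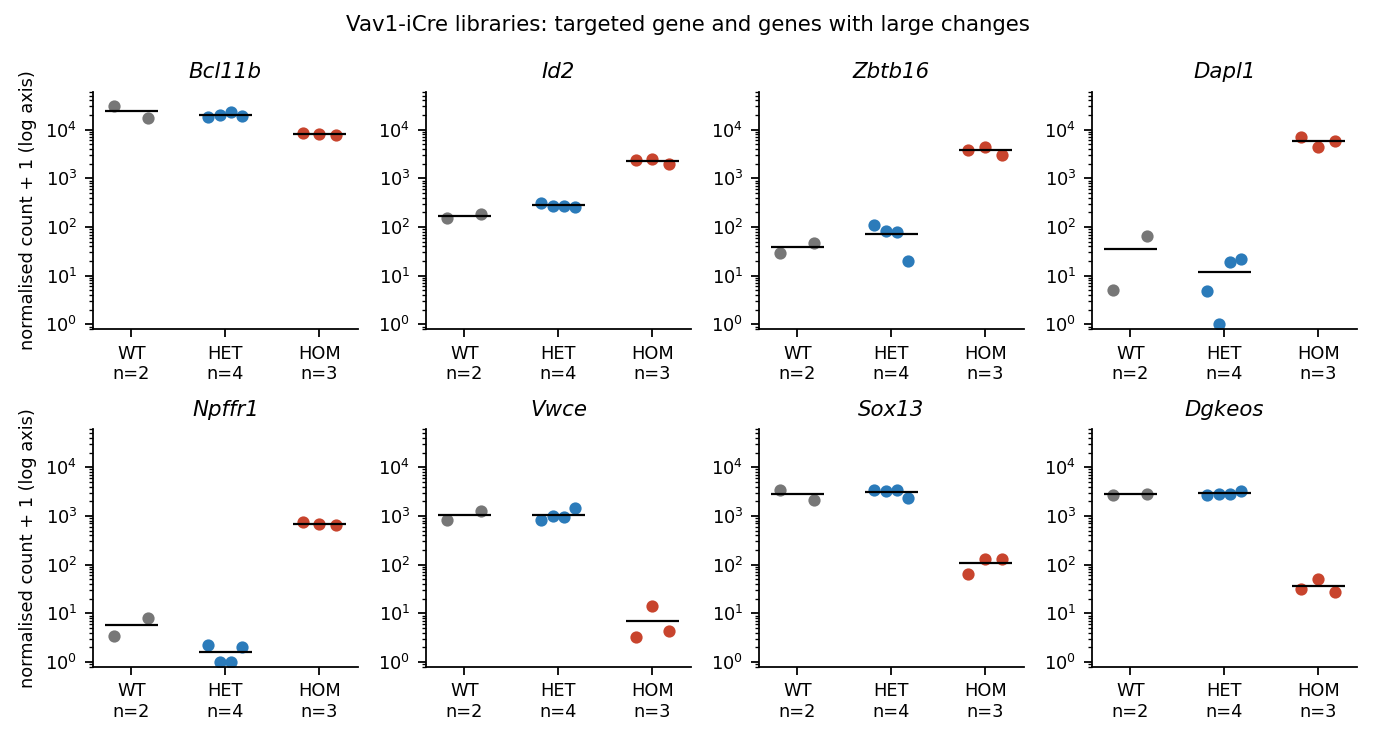
Normalised counts plus 1 on a log axis for 8 genes in the WT, HET and HOM Vav libraries; each point is a library and the bar is the group mean. HOM and HET points do not overlap in any panel, and Dapl1 and Npffr1 go from at most 21.5 in HET to at least 636 in HOM.

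Promoter sequences of Id2, Dapl1, Npffr1 and Sox13 are shown because the first 3 rose and the last, a transcription factor gene, fell, and because Id factors act on E proteins, whose binding letters are the E-box CANNTG. Each runs 5′ to 3′ on the strand of the gene, from 250 bases before to 50 bases after the RefSeq start (build GRCm38.p6, other than the mm9 of the counts), with E-box letters in capitals.
Id2 promoter, chr12:25096043-25096342, minus strand: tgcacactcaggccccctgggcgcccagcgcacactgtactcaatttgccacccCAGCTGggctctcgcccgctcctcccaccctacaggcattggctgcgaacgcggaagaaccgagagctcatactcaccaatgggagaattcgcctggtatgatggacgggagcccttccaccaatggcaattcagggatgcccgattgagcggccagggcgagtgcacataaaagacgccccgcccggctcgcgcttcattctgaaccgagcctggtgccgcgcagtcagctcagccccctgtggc
Dapl1 promoter, chr2:59484403-59484702, plus strand: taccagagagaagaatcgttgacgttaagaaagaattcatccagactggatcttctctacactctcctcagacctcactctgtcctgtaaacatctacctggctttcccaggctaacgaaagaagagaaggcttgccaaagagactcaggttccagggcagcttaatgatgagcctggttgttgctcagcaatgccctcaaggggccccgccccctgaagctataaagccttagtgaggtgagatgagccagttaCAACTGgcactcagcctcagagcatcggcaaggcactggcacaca
Npffr1 promoter, chr10:61595045-61595344, plus strand: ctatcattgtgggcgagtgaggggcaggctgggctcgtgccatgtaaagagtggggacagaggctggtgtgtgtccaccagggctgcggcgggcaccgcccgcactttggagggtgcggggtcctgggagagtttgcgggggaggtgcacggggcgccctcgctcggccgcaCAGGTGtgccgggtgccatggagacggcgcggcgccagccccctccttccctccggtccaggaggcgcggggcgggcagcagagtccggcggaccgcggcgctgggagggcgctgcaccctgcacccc
Sox13 promoter, chr1:133424163-133424462, minus strand: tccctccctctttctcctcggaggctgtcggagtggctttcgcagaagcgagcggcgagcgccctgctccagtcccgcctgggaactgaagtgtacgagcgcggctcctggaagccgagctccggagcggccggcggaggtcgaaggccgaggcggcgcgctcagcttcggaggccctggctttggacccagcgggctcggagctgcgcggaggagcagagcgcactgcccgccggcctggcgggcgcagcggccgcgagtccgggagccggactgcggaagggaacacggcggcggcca
Id2, Dapl1 and Npffr1 each held 1 E-box in this window and Sox13 held none. Both strands were searched, which read the same for this motif. An E-box was present in 72.3% of 32851 promoters of all genes, in 73.0% of 952 promoters of genes higher in HOM and in 66.5% of 1061 promoters of genes lower in HOM. The letters TGTGGT, which Runx factors bind, were present in 16.8%, 18.7% and 13.3%, AGATAA, which GATA factors bind, in 11.2%, 7.88% and 8.29%, CTTTGA, which Tcf1 and Lef1 bind, in 16.0%, 14.6% and 11.7%, and GGAAG, which Ets factors bind, in 71.4%, 72.0% and 72.8%. Both strands were searched for these as well, and the motifs do not exclude each other. These are descriptions of letters in a short window.

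NK-cell and group 1 innate lymphoid (ILC1) genes moved in 1 direction. Of 23 genes on that list, 20 had a row, and all 20 were higher in HOM, with a median log2 change of 4.14 (4.04 with the 2 genes that had no HET counts at their lower bound). For 17 of the 20 no HOM library overlapped any HET library, a smaller share than the 97.8% of all listed genes. Over all 972 higher genes the median was 2.10, and a share of 8.49% of the 24022 genes kept from the Lck series had a row in the Vav table, as did 12.9% of the genes tested in Lck. Summed over the 20 genes, the normalised counts were 16237, 16417 and 13743 in HOM and 2804, 2311, 2350 and 1993 in HET, with WT at 1404 and 1532.

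Surface receptors, an adaptor and a transcription factor of NK cells were among them. Cd160, a receptor of NK and intraepithelial lymphocytes, had 2840, 2604 and 2727 normalised counts in HOM and 374, 319, 342 and 263 in HET (log2 change 3.07, SE 0.17). Fcer1g, which encodes a signalling adaptor of activating receptors, had 2068, 2260 and 1821 in HOM and 115, 74.7, 65.3 and 94.2 in HET (4.55, SE 0.33). Both rose in the Lck series as well (2.24 and 5.69, edgeR adjusted p = 1.99e-08 and 4.75e-07). Nfil3, a transcription factor needed for NK development, had 1031, 981 and 850 in HOM and 87.8, 79.3, 74.8 and 46.1 in HET, and it rose in both series (3.73 in Vav; 2.88 in Lck, edgeR adjusted p = 4.38e-05). Tnfsf10, the death ligand TRAIL, was already well expressed in HET, at 1751, 1478, 1596 and 1317, and stood at 5859, 5196 and 4661 in HOM (1.77, SE 0.15).

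Several defining NK genes were chosen for naming after their values were seen. Il2rb, the IL-2 and IL-15 receptor chain on which NK cells depend, had 1730, 2191 and 1317 normalised counts in HOM and 57.7, 46.7, 26.1 and 33.8 in HET. Eomes and Tbx21, the T-box factors of NK cells and ILC1, were low, with Eomes at 81.0, 79.7 and 51.8 in HOM against 0.933 to 7.17 in HET and Tbx21 at 95.7, 112 and 36.7 against 9.50 to 17.6. Ncr1, the NK receptor NKp46, had 108, 153 and 22.7 in HOM and no count in any HET or WT library, at least 119-fold higher with 3 counts over the HET group as the floor. HOM replicate 3 was the lowest HOM library for Il2rb, Eomes, Tbx21 and Ncr1. In bulk RNA, a few cells of an NK type and a low level in all cells cannot be told apart. In the Lck series 9 of the 20 genes were tested, 6 were called higher and none lower. This is close to the share over all tested genes that were higher in Vav HOM (408 of 648, 63.0%). Among the lower genes 648 of 921 (70.4%) were called lower in Lck, and of all 12169 genes tested there 14.2% were called higher and 11.4% lower. Counts of list members called in Lck are read against these shares, and both cover only genes that reached 1 RPKM in at least 1 Lck group.

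Killer-cell lectin-like receptors (KLR), the inhibitory and activating receptors encoded in the NK gene cluster, were at the detection limit in HET. Of 32 listed symbols 10 had a row, all 10 on chromosome 6 and all 10 higher, with a median log2 change of 6.67, or 5.19 with the 5 genes without HET counts at their lower bound. For 8 of the 10 no HOM library overlapped any HET library, against 97.8% of all listed genes. Klrk1 (NKG2D) had 251, 215 and 124 normalised counts in HOM and 2.51, 1.87, 0 and 0 in HET. Klrd1 (CD94) had 49.5, 28.5 and 73.5 in HOM, and 2 reads in HET (ratio 91.9, 95% counting interval 24.96 to 766). Klrc1 differed widely between HOM libraries, at 56.3, 22.6 and 3.24. Reads of the near-identical Klrc and Klra genes could be shared between copies, so their separate values are uncertain, and no KLR gene passed the level filter of the Lck test.

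Dapl1, Npffr1 and Zbtb16, the markers named for this comparison, were also put on a list of PLZF-associated and innate-like T genes. Of its 20 genes 11 had a row, 8 higher and 3 lower (median 2.59). The counts of this list, here and in Lck, include these markers and are in part set by that choice. Itgb7, an integrin chain of gut-homing lymphocytes, had 6922, 5535 and 6178 normalised counts in HOM and 453, 366, 336 and 550 in HET (3.87, SE 0.21), and it rose in Lck (1.89, edgeR adjusted p = 0.0134). Pdcd1, the inhibitory receptor PD-1, was among the 3 lower genes, with 116, 200 and 78.9 against 546, 518, 443 and 454. Of the 11 genes 9 were called in the same direction in Lck and none in the opposite one.

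The SLAM family of receptors and adaptors had 6 of 12 genes listed, all 6 higher. For 5 of the 6 no HOM library overlapped any HET library, against 97.8% of all listed genes. Cd244 (2B4) had 1131, 1333 and 1251 normalised counts in HOM and 208, 178, 134 and 73.7 in HET (3.06, SE 0.31). Ly9 and Slamf6, which HET cells already expressed, rose by 1.23 and 1.00 on the log2 scale. All 3 of the family's genes that were tested in Lck were called higher there, Cd244 by 4.44 (edgeR adjusted p = 1.21e-06).

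Effector genes of cytotoxic cells did not move as a block. Of 15 genes 8 had a row, 6 higher and 2 lower. In Lck 7 were tested, 2 were called in the same direction and none in the opposite one. The shares over all tested genes were 63.0% of the higher and 70.4% of the lower. Gzmc, a granzyme, had 12.4, 95.4 and 136 normalised counts in HOM and 0 to 4.09 in HET. Ccl5 had 43.9, 80.7 and 14.0 in HOM and 1.19 to 3.76 in HET. Gzmc and Ccl5 missed the threshold in Lck (edgeR adjusted p = 0.0685 and 0.933). Srgn, the proteoglycan of secretory granules, was abundant throughout, at 7381, 6525 and 5310 against 4203, 3665, 3009 and 2423 (0.95, SE 0.20). Nkg7, a granule membrane protein of NK and T cells, was lower, at 342, 462 and 404 against 888, 771, 842 and 1126. Its log2 change was -1.17 (SE 0.19), and it missed the threshold in Lck (-0.53, edgeR adjusted p = 0.336).

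**Figure D2:**
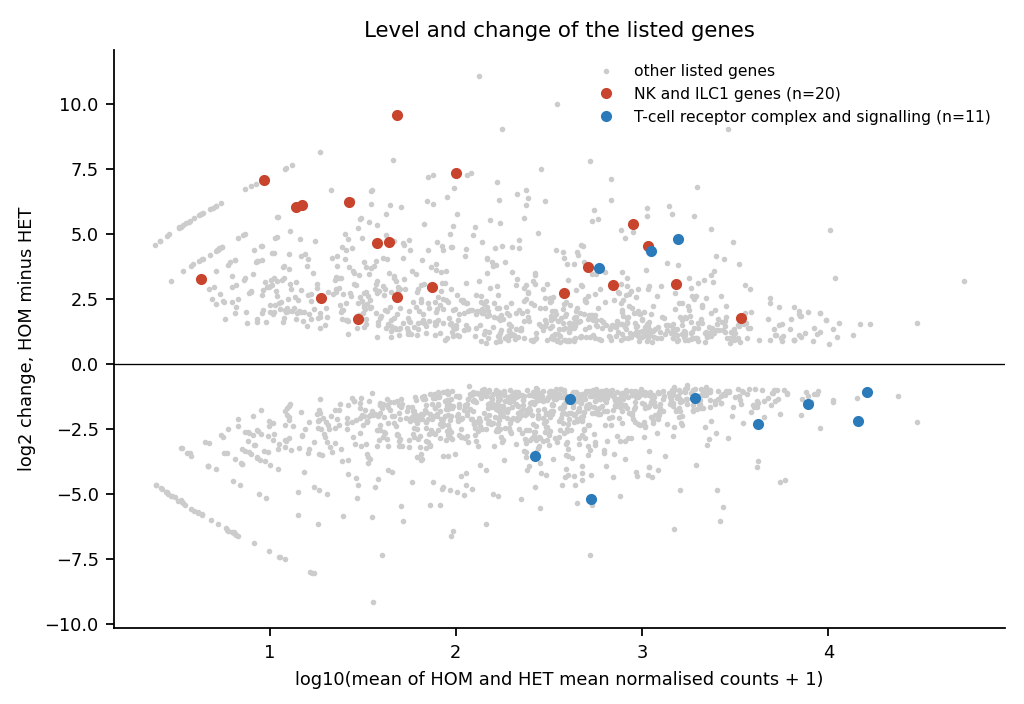
Log2 change of HOM minus HET (vertical) against the log10 of the mean level (horizontal) for the 2076 listed genes; red points are the 20 NK and ILC1 genes, blue points the 11 T-cell receptor genes, grey points the rest. All red points lie above 0, 8 of the blue points lie below it, and the empty band around 0 is the authors' selection.

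Genes of the T-cell receptor (TCR) complex and its signalling moved mostly the other way. Of 32 genes 11 had a row, 8 lower and 3 higher (median -1.33, against -1.91 over all 1104 lower genes). Cd3d, a signalling chain of the pre-TCR and TCR, had 1469, 1348 and 1443 normalised counts in HOM and 7358, 6746, 6163 and 7677 in HET (-2.30, SE 0.15), and it fell in Lck by 1.31 on the log2 scale (edgeR adjusted p = 7.12e-06). The fall was larger in Vav by a log2 difference of -0.98 (edgeR adjusted p = 0.0162). Cd3e, Cd3g, Cd5 and Cd6, named after their values were seen, fell too. Cd6 and Cd5, inhibitory co-receptors that thymocytes gain with TCR signalling, fell furthest, Cd6 to 5.63, 36.4 and 41.0 from 1164, 1139, 955 and 874. Cd3e kept 4175, 4023 and 3701 counts against 10788 to 13548.

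The 3 higher genes of that list were Txk, Cd2 and Cd7. Txk, a Tec-family kinase, had 3253, 3016 and 2703 normalised counts in HOM and 109, 127, 80.7 and 108 in HET (4.81, SE 0.22). Cd2, an adhesion molecule of T and NK cells, had 2523, 2013 and 1863 in HOM and 133, 133, 91.4 and 63.5 in HET (4.34, SE 0.29). Cd7, an early lymphoid surface protein, had 1112, 1072 and 1066 against 94.1, 79.3, 72.4 and 87.0. Txk and Cd7 rose in Lck (3.50 and 3.57, edgeR adjusted p = 2.17e-05 and 2.69e-04), while Cd2 missed the threshold there (log2 value 0.74, edgeR adjusted p = 0.695). Cd2 was uneven in the Lck HET DN3 libraries, from 3.62 to 85.5 RPKM against 26.9 to 57.3 in Lck HOM, so the missing call decides little. Of the 11 genes 10 were called in the same direction in both series.

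Dntt, the terminal transferase that adds bases at antigen receptor joints, was lower in HOM, at 9603, 11323 and 10420 normalised counts against 52770, 49426, 49714 and 44640 (-2.23, SE 0.16). The fall in Lck was smaller (-0.62, edgeR adjusted p = 0.00159), with a difference of -1.61 between the series (edgeR adjusted p = 4.41e-05). Polm, a related polymerase, was higher, at 683, 794 and 576 against 207, 213, 222 and 245. No other gene of the 10 on the recombination list had a row.

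Transcription factors of the T lineage split. Of 25 genes 9 had a row, 5 lower, Bcl11b among them, and 4 higher. Sox13, an HMG-box factor expressed in early thymocytes and in gamma-delta T cells, had 61.9, 131 and 129 normalised counts in HOM and 3349, 3216, 3338 and 2386 in HET, so 3.49% of the HET mean was left. Its fall in Vav (-4.84, SE 0.32) was larger than in Lck (-1.69, edgeR adjusted p = 3.53e-07), by -3.15 (edgeR adjusted p = 4.16e-07). Nfatc2, a calcium-regulated factor, had 66.4, 70.8 and 156 against 837, 964, 1206 and 820. Zbtb7b (ThPOK), the factor of CD4 T cells, was higher, at 326, 278 and 310 against 7.53, 14.9, 20.2 and 43.0. Spib, an Ets-family factor of early thymocytes, fell further in Lck (-2.91) than in Vav (-1.55), with a difference of 1.37 (edgeR adjusted p = 0.0343). Of the 303 genes with a called difference between the series, it is among the 5 whose change was further from 0 in Lck.

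Besides Id2, the list of E proteins, Id factors and their partners had rows for Id1 and Id3, which moved in opposite directions. Id1 had 179, 174 and 210 normalised counts in HOM and 35.1, 25.2, 17.8 and 67.6 in HET (2.36, SE 0.47), with no such change called in Lck (-0.15, edgeR adjusted p = 0.924). Id3, an Id factor that TCR signals induce, had 284, 208 and 267 against 839, 735, 613 and 842 (-1.58, SE 0.23), and it fell in Lck (-1.04, edgeR adjusted p = 0.0228). Rows for E-protein genes themselves (Tcf3, Tcf4, Tcf12) were not among the 2076.

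Notch signalling drives early T development, and its targets did not share a direction. Of 23 pathway genes 8 had a row, 5 higher and 3 lower. Heyl, a Notch-induced repressor gene, had 4676, 3983 and 4237 normalised counts in HOM and 496, 628, 397 and 411 in HET (3.15, SE 0.19). Nrarp, a feedback inhibitor of the pathway, had 3827, 3008 and 3853 against 491, 446, 382 and 301 (3.14, SE 0.21). Both rose in Lck (2.76 and 2.10, edgeR adjusted p = 6.94e-06 and 1.30e-05). Dtx1, a Notch target and ubiquitin ligase, rose from 4461, 5493, 4223 and 4133 to 12686, 10882 and 12903 in Vav (1.41, SE 0.16) and differed from Lck by 1.503 (edgeR adjusted p = 0.0225). Notch3 and Hes1, both known Notch targets and named after their values were seen, were lower, Notch3 at 5626, 5283 and 6676 against 12365 to 19634, and Hes1 at 1722, 1828 and 1555 against 3389 to 4139.

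Progenitor genes likewise split, with 10 of 26 listed, 4 higher and 6 lower. Kit, the stem cell factor receptor, which falls as DN2 cells become DN3 cells, had 13514, 10989 and 12767 normalised counts in HOM and 3405, 3336, 3243 and 2531 in HET (1.99, SE 0.15). It rose by 2.33 in Lck (edgeR adjusted p = 1.47e-07), and it was lower in DN3 than in DN2 cells of the Lck WT libraries (-1.25, edgeR adjusted p = 0.00159). Flt3, a receptor of lymphoid progenitors, had 171, 211 and 157 against 7.53, 10.3, 3.56 and 9.21 (4.51, SE 0.44). Erg, an Ets factor of stem cells and early thymocytes, was lower, at 140, 199 and 306 against 1815, 1806, 1299 and 1155 (-2.82, SE 0.29). Stage was looked at over all listed genes as well, after the data were seen. Of 648 higher genes tested, 21.5% were called lower and 3.55% higher in Lck WT DN3 than in WT DN2, and of 921 lower genes 11.9% and 3.37%, against 9.86% and 11.0% of all 12169 genes tested (20.8% called in all). The Vav labels name no stage within CD25+ cells, so genotype and stage cannot be told apart in HOM against HET. The same holds in Lck, where HOM carries no stage label and HET is labelled DN3.

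Genes of gamma-delta T cells were mostly lower, with 7 of 14 listed, 6 lower and 1 higher. The exception was Cd163l1, a scavenger receptor gene, with 102762, 103058 and 85130 normalised counts in HOM and 6811, 7240, 13050 and 14835 in HET (3.21, SE 0.35). It rose in Lck (3.73, edgeR adjusted p = 3.91e-07). 5830411N06Rik was lower, at 415, 478 and 513 against 3015, 3208, 4945 and 4888, with WT at 6213 and 13469. Blk, a Src-family kinase, had 143, 156 and 192 against 575, 566, 521 and 698.

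Cytokine receptors changed in both directions, with 17 of 37 listed, 7 higher and 10 lower. Both chains of the interferon-gamma receptor were lower, Ifngr1 at 1845, 1823 and 1707 normalised counts against 7637, 7368, 7753 and 6398, and Ifngr2 at 34.9, 48.2 and 42.1 against 484, 427, 393 and 425. Il10ra and Il21r, receptor chains for IL-10 and IL-21, fell by 3.45 and 2.97 on the log2 scale. All 4 fell in Lck as well, by less in each (differences of -1.25, -1.43, -1.23 and -1.23 in that order of naming, edgeR adjusted p = 8.69e-04, 0.0264, 0.0318 and 0.0168). Il9r, the IL-9 receptor gene, was higher, at 4576, 4163 and 3598 against 1366, 1594, 1660 and 1301, with WT at 245 and 273, so that HET lay well above WT too. Of 15 genes tested in Lck 12 were called in the same direction.

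Downstream of these receptors Cish, a feedback inhibitor that STAT5 induces, had 15.8, 17.7 and 56.2 normalised counts in HOM and 355, 881, 603 and 459 in HET (-4.26, SE 0.53). Pim2, a kinase gene that STAT factors induce, was higher, at 664, 589 and 644 against 225, 207, 228 and 208. No other gene of the 21 STAT, JAK and SOCS genes had a row.

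Chemokine receptors and other trafficking genes were higher with a single exception, 13 of the 14 that had a row out of 28 (median 2.91). Cxcr5, the receptor that guides cells to B-cell follicles, had 2257, 2179 and 1831 normalised counts in HOM and 27.6, 22.4, 26.1 and 51.2 in HET (6.03, SE 0.45). Gpr183, an oxysterol receptor of migrating lymphocytes, had 825, 648 and 690 against 42.7, 41.1, 39.2 and 47.1. S1pr1, the receptor with which mature thymocytes leave the thymus, had 419, 256 and 341 against 8.31 to 29.7. Ccr9, which holds thymocyte precursors to the thymus and gut, was the exception, at 10.1, 42.3 and 20.5 against 713, 845, 1123 and 1543 (-5.42, SE 0.46), and it fell in Lck too (-4.26, edgeR adjusted p = 2.08e-06). Of 10 genes tested in Lck 2 were called in the same direction and none in the opposite one, fewer than the 63.0% and 70.4% of all tested higher and lower genes. For Cxcr5 the Lck HOM libraries had 11.3 to 19.3 RPKM, and of the Lck HET DN3 libraries library 1, the one with mature T-cell transcripts, had 55.1 while the other 5 had at most 0.372, and the part of that library in the missing call was not tested for Cxcr5 alone.

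Integrin subunits had 11 of 23 genes listed, 8 higher and 3 lower. Itgb6, an epithelial integrin chain, had 118, 172 and 149 normalised counts in HOM and 0 to 3.07 in HET. Itga9, a partner of beta-1 integrin, had 5906, 3357 and 4222 against 474, 412, 397 and 221, and rose in Lck (2.94, edgeR adjusted p = 4.34e-09). Itgb4, the laminin-binding beta-4 chain, was lower, at 198, 192 and 239 against 1962, 2394, 2877 and 2477 (-3.53, SE 0.19).

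Costimulatory and inhibitory receptors were mixed, with 9 of 21 listed, 5 higher and 4 lower. Lag3 had 507, 582 and 513 normalised counts in HOM and 120, 132, 72.4 and 81.9 in HET, whereas Ctla4 had 86.7, 35.4 and 104 against 582, 513, 382 and 344. In the TNF superfamily 11 of 36 were listed, 6 higher and 5 lower. Tnfrsf19, a TNF receptor family member, had 352, 202 and 272 against 13.3 to 17.8, and Tnfrsf1a, the main TNF receptor, had 254, 309 and 307 against 968, 991, 970 and 1115. BTB zinc-finger factors other than Zbtb16 and Zbtb7b included Zbtb12, at 272, 292 and 275 against 713, 703, 683 and 733, and in all 5 of the 6 listed genes of that family were higher.

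**Figure D3:**
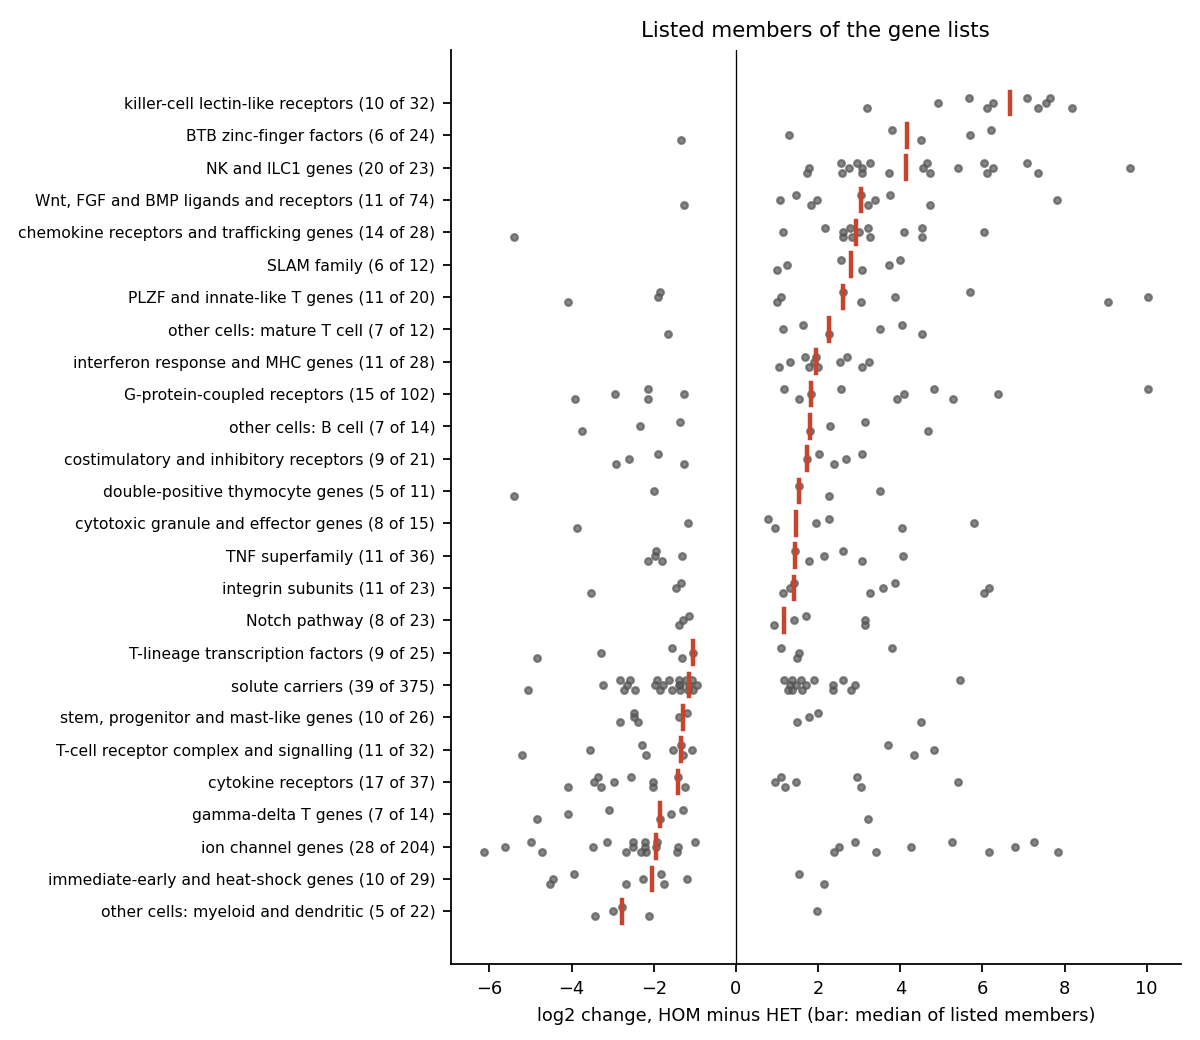
Log2 change of HOM minus HET for the listed members of each gene list with at least 5 of them; each point is a gene, the red bar is the median, and the numbers are genes with a row out of genes on the list. The NK, KLR, SLAM and interferon lists lie wholly to the right of 0, and the gamma-delta, cytokine receptor and T-cell receptor lists have medians to the left of it.

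Interferon-response and MHC genes were all higher, 11 of 11 with a row out of 28 (median 1.95). For 9 of the 11 no HOM library overlapped any HET library, against 97.8% of all listed genes. Irf7, the factor that amplifies interferon production, had 4261, 4653 and 2399 normalised counts in HOM and 571, 621, 519 and 895 in HET (2.53, SE 0.30). Rsad2, the antiviral enzyme viperin, had 1734, 1636 and 744 against 216, 187, 126 and 123 (3.07, SE 0.34). HOM replicate 3 was the lowest HOM library for both. Summed over the 11 genes the counts were 30886, 31716 and 20316 in HOM and 8268, 8083, 5925 and 7622 in HET. In Lck 9 of the 11 were tested, 1 was called higher and none lower, against 63.0% of all tested higher genes, and Irf7 missed the threshold there (log2 value 0.95, edgeR adjusted p = 0.0542). H2-Q7 is 1 of several near-identical MHC genes, and its separate value (15842, 15661 and 12868 against 4968, 5093, 3599 and 4716) is uncertain.

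Immediate-early and heat-shock genes, which cells switch on within minutes of handling or stimulation, were higher in HET than in HOM for 8 of the 10 with a row out of 29, and they differed widely between the HET libraries. Jun had 439, 382 and 691 normalised counts in HOM and 18966, 7716, 3360 and 870 in HET (-3.94, SE 0.86). Hspa1a and Hspa1b, near-identical heat-shock genes named after their values were seen, had up to 29509 and 30854 in HET replicate 1 and 462 and 482 in HET replicate 4. The summed list stood at 87086, 32267, 13900 and 5141 in HET replicates 1 to 4, at 23820 and 9027 in WT, and at 4342, 5391 and 5841 in HOM. HET replicate 4 thus lay within the HOM range, and the part of this spread in other changes was not tested. Dusp2, a phosphatase of activated lymphocytes, was steadier, at 671, 663 and 754 against 2821, 2267, 2454 and 1895, and Ier5 moved the other way, at 2203, 2067 and 1682 against 829.2, 720, 666 and 541.

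**Figure D4:**
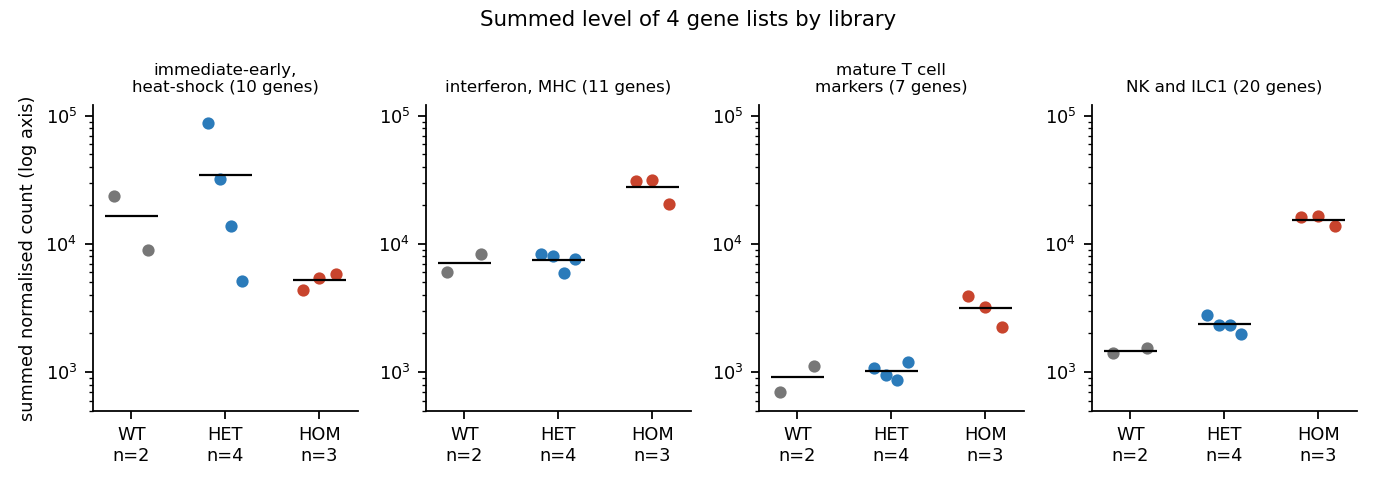
Summed normalised counts (log axis) of the listed members of 4 gene lists in each Vav library; points are libraries and bars group means. The immediate-early and heat-shock sum runs from 5141 to 87086 within HET, while the NK and ILC1 sum is at least 13743 in each HOM library and at most 2804 in each HET library.

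Markers of other cell types were present in part. Of 12 mature T-cell markers 7 had a row, 6 higher, and their sum was 3944, 3205 and 2257 in HOM and 1071, 953, 867 and 1196 in HET, while Cd4 had no row. Cd8a had 762, 560 and 132 normalised counts in HOM and 35.6 to 53.9 in HET, and Cd8b1 had 650, 447 and 197 against 61.7 to 112, so both differed several-fold between HOM libraries. S1pr1, Ccl5 and Ccr7 belong to this list as well, and the part of such cells in the trafficking and NK results was not tested. Of 14 B-cell markers 7 had a row, 4 higher and 3 lower, with a sum of 6631, 5877 and 7087 in HOM against 1073 to 1219 in HET. Most of the HOM sum was Pou2af1, an octamer-factor coactivator, at 5994, 5196 and 6569 against 312, 262, 218 and 127, which also rose in Lck (2.72, edgeR adjusted p = 4.05e-05). Cd79b, a B-cell receptor chain, was lower, at 331, 380 and 235 against 793, 788, 756 and 900.

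Myeloid markers were low and fewer in HOM. Of 22 genes 5 had a row, 4 lower and 1 higher, with sums of 64.2, 65.9 and 135 in HOM against 247 to 684 in HET. Lyz2, a lysozyme of macrophages whose reads can be shared with Lyz1, had 21.4, 14.8 and 13.0 normalised counts against 273, 178, 120 and 142. Of 21 epithelial and stromal markers 3 had a row, all lower. Epcam, an adhesion protein of epithelium that thymocytes also express, had 82.2, 137 and 77.8 against 1810, 1691, 1722 and 1760, and the 4 HET libraries differed little, while the keratin gene Krt8 had no row. A single erythroid marker of 10, Klf1, had a row, at 7.88, 6.89 and 3.24 against 21.3, 27.99, 20.2 and 16.4.

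Growth and survival genes were few among the 2076. Of 34 cell-cycle genes 3 had a row. Cdkn1a, the p53-induced inhibitor p21, was lower, at 67.5, 52.1 and 70.2 normalised counts against 759, 735, 623 and 837, while Cdkn1c, the inhibitor p57, was higher, at 325, 187 and 293 against 21.3, 18.7, 23.7 and 29.7. Ccnd2 (cyclin D2) was lower (-1.10, SE 0.30). Bcl2, the survival factor, was the single gene of 26 on the apoptosis list, at 1105, 1540 and 1377 against 4006, 3603, 3748 and 2952. None of 18 glycolysis genes, none of 29 Bcl11b cofactor genes and none of 6 sex-linked genes had a row. Of 11 genes of double-positive thymocytes 5 had a row, 3 higher and 2 lower, and of 19 genes of the other innate lymphoid groups (ILC2 and ILC3) 4 had a row, 2 higher and 2 lower.

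The genes with the largest changes, by the naming rule, were mostly outside these programmes. Mag, the myelin-associated glycoprotein gene, had 319, 287 and 183 normalised counts in HOM and no count in HET, at least 323-fold higher with 3 counts over the HET group as the floor. Aoah, an enzyme that inactivates endotoxin, had 370, 364 and 315 in HOM and 2 reads in HET (ratio 646, 95% counting interval 178 to 5338). Zfp105, a zinc-finger gene, had 671, 618 and 423 against 0.933 to 7.17. Art2a-ps, annotated as a pseudogene, had 317, 143 and 252 against 0 to 4.09. Mag, Aoah and Zfp105 rose in Lck by 8.91, 7.77 and 9.39 on the log2 scale (edgeR adjusted p = 2.89e-06, 3.94e-06 and 1.62e-08).

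Among the largest falls, Vwce, which encodes a secreted protein, went to 2.25, 12.8 and 3.24 normalised counts in HOM from 817, 976, 959 and 1425 in HET (-7.35, SE 0.49). Myl10, a myosin light chain gene, went to 27.0, 87.6 and 121 from 5151, 5048, 3331 and 7203 (-6.04, SE 0.51). Ttll9, Hsf2bp, Pak6, Il34 and Gm5111 had at most 19.4 in any HOM library and at least 77.8 in each HET library. Dgkeos, annotated antisense to a neighbouring gene, had 30.4, 49.2 and 27.0 against 2751, 2840, 2857 and 3287 (-6.36, SE 0.25). The counting strand is not given in the sources used here and the library kit does not mark strand, so reads of Dgkeos and of an overlapping gene cannot be told apart. Within the Lck series Vwce, Myl10 and Dgkeos fell by 3.27, 2.99 and 3.26, and each difference from Vav passed the threshold (-4.08, -3.04 and -3.09, edgeR adjusted p = 3.73e-04, 0.0115 and 8.62e-04).

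A like contrast in the Lck series tested the listed genes on other libraries. It used 5 Lck HOM and 6 Lck HET DN3 libraries (Bcl11b flx/flx and flx/+ with Lck-Cre, all YFP+CD25+), the HOM libraries without a stage label. Of 12169 genes tested there, 25.6% were called, 14.2% higher and 11.4% lower. A gene was tested if its mean reached 1 RPKM in any Lck group, HOM included. Genes low in all Lck groups were left out, which favours a high share of calls among the higher genes. Of the 972 genes higher in Vav HOM, 648 were tested in Lck, 408 of them (63.0%) were called higher and none lower. Of the 1104 lower genes 921 were tested, 648 (70.4%) were called lower and 1 higher. That gene, Dnmt3l, a DNA methyltransferase cofactor named for this exception, had at most 2.16 normalised counts in Vav HOM and 17.8 to 35.1 in Vav HET. In Lck HOM it ran from 0.0666 to 28.7 RPKM between libraries. Without the filter on level 1087 listed genes were called in Lck, against 1057 with it.

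Across the 1569 genes tested in both series, changes correlated with Pearson's r of 0.833 and Spearman's rho of 0.823, a description across genes that are not independent replicates and that were selected for change in Vav. The median absolute log2 change was 1.78 in Vav and 1.06 in Lck, and it was larger in Vav for 1390 genes (88.6%). Selection on the Vav libraries favours large Vav changes, so this share is not a test. The fitted difference between the series was called for 303 of 2039 genes (14.9%), 241 with a lower and 62 with a higher log2 change in Vav. In 298 of the 303 the Vav change was further from 0. The difference rests on the same selected genes and Vav values, which favours a larger change in Vav here too, so neither these counts nor the differences of single genes are evidence of a larger effect in Vav. This count rests in part on HOM replicates 1 and 2: it was 86 without HOM replicate 1 and 169 without HOM replicate 2. Cre line, sort, stage and sequencing table differ together between the series, so their parts cannot be told apart.

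**Figure D5:**
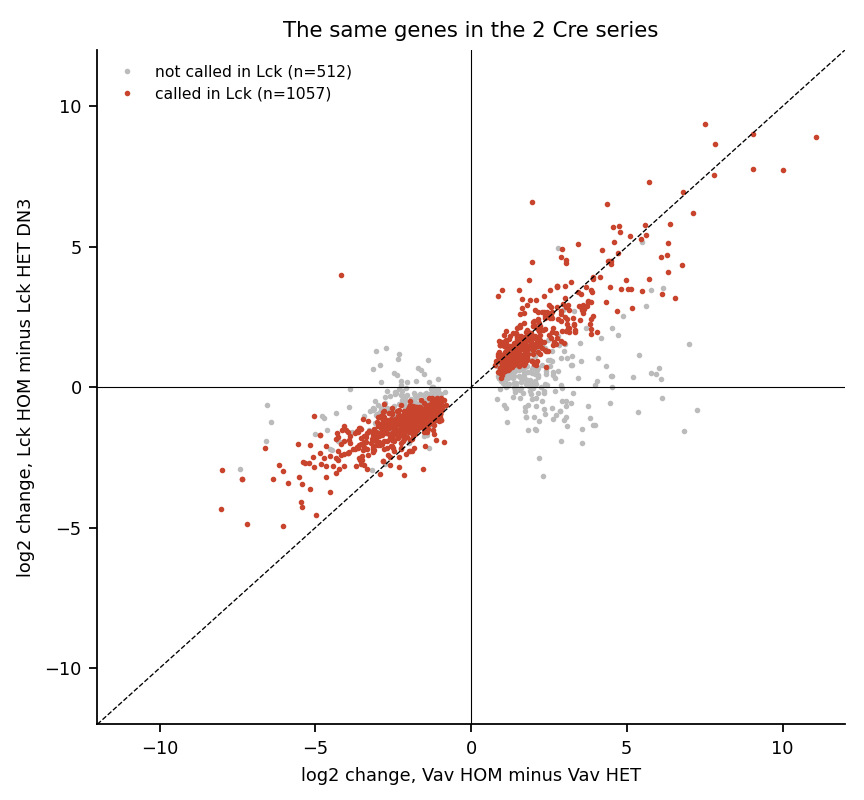
Log2 change of HOM minus HET in the Lck series (vertical) against the Vav series (horizontal) for 1569 listed genes tested in both; red points were called in Lck, grey points were not, and the dashed line marks equal change. Most points lie between the dashed line and the horizontal axis, and among called genes 1056 have the same sign in both series and 1 the opposite.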

How the data were processed

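RNA sequencing (50-nt single reads) of 9 Vav and 25 Lck libraries was used. Tools named in the submitters' processing notes were edgeR 3.6.8, HOMER, RSEM 1.2.25, STAR 2.4.0 and Trimmomatic 033; NCBIM37 and mm9 were the builds. The deposited values are whole-number counts per gene over exons, made with HOMER and not normalised per the file headers, although the table's name says RPKM. The authors ordered and selected the 2076 Vav genes with edgeR on these libraries, per the file headers. The counting strand is not given in the sources used here.

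Vav libraries were scaled by trimmed means (TMM) within controls and within HOM, and the empty gap of the log2 changes (edges -0.99 and 0.99) was centred on 0. The resulting factors ran from 0.797 to 1.67. edgeR 4.0.16 (R 4.3.3) quasi-likelihood tests over all 2076 genes, with no count filter, gave changes, SE (absolute change divided by the square root of F) and Benjamini-Hochberg adjusted p-values, 2-sided, called under 0.05; all 9 libraries shared 1 fit. The 12169 genes reaching a group mean of 1 RPKM in Lck were tested in a fit of 25 Lck libraries. For this filter RPKM was computed from counts, deposited lengths and library totals (15772841 to 43105091 as deposited). The RPKM values given in the text used TMM-scaled totals instead. The difference between series was fitted over all 34 libraries. In 10 Lck columns 26 values of date-like symbols were missing and later values were shifted; they were moved back, 457 genes of unsettled order were left out, and 24022 remained (correlation with unaffected columns 0.961 to 0.994). DESeq2 1.42.0, limma 3.58.1, other scalings, filters, a replicate block and leaving out each library were the alternatives. The fitting steps were tested on simulated data in which most genes were unchanged and the scale factors were known. The simulation thus did not test the scaling of the Vav libraries or the effect of the authors' selection.

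Genes named are Bcl11b, Id2, Zbtb16, Dapl1 and Npffr1; per direction the 8 largest changes with a mean of at least 100 normalised counts and no overlap; up to 4 members of each of 37 gene lists with the smallest adjusted p; and per direction the 5 genes with the largest called difference between series and opposite signs in them. Genes outside this rule are said to have been named after their values were seen. The members and lists were chosen with earlier results of these data known. Intervals and floors cover counting error only.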

Additional observations from a re-analysis of the deposited data

Results flagged for a closer look

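In 9 of 134 named genes 1 HET library lay far from the other 3 for a group of 4; chance alone gives such a gap in about 1 of 20 groups. HET replicate 4 was that library for Sox13 (2386 normalised counts, lowest), Tnfrsf1a (1115), Fzd4 (10.2), Vpreb1 (82.9) and S1pr1 (29.7), all highest but Sox13. HET replicate 2 was highest for Aoah (1.87) and Kcne3 (0.933), and HET replicate 1 for Klrc1 (1.25), each a matter of 1 or 2 reads. HET replicate 3 was lowest for Tfr2 (114).

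Genes with opposite signs in Vav and Lck and a called difference were named by rule, the 5 largest differences per direction. The number 10 is thus set by the rule, and none of these 10 was called in Lck itself. Dnmt3l, under the level that the rule asks for, also had opposite signs and a called difference (-8.17, edgeR adjusted p = 0.0157). It was called in Lck too (4.01, edgeR adjusted p = 0.0275). The difference (Vav minus Lck, log2) was 4.92 for Zbtb7b, 3.74 for Tnfsf8, 6.49 for Dsp, 5.004 for Myo1e and 3.71 for Samhd1. Some of these genes were uneven between the Lck HET DN3 libraries. Library 1 had 22.1 RPKM of Tnfsf8 and 31.5 of Samhd1, against at most 1.18 and 4.53 in the other 5. Zbtb7b was at 11.4 in library 1 and 8.57 in library 2, and at most 3.44 in the others. Library 2 had 4.29 of Dsp and 5.22 of Myo1e, against at most 1.83 and 1.67 in the others. Without library 1, a choice made after seeing the data, the difference was 4.51 for Zbtb7b, 1.37 for Tnfsf8 and 2.19 for Samhd1 (edgeR adjusted p = 0.0775, 0.257 and 0.143). The calls of these 3 genes were also lost on leaving out any 1 of the Vav HOM or HET libraries (edgeR adjusted p from 0.0534 to 0.0967 for Zbtb7b, 0.0521 to 0.0892 for Tnfsf8 and 0.0521 to 0.0864 for Samhd1). For Dsp the difference was 3.48 without the 6 libraries with epithelial transcripts (edgeR adjusted p = 0.0536).

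The differences of lower genes were -3.08 for Gab1, -2.83 for Bpifc, -2.46 for Pygl, -2.39 for Tfr2 and -2.33 for Slc9a2. Lck HOM library 4 had 5.60 RPKM of Gab1, against at most 0.292 in the other 4 Lck HOM libraries. Pygl and Tfr2 were at under 1 RPKM in every Lck HOM and HET DN3 library. Each of the 10 differences missed the threshold under at least 1 alternative.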

How the results depend on the processing

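In all 16 alternatives 1732 to 2076 genes were called in HOM against HET, and of 134 named genes 129 kept their direction and call throughout. The exceptions (Nkg7, Tnfsf11, Ccnd2, Klf1 and Slc9a2) missed the threshold with DESeq2's own size factors alone. That scaling moved the median log2 change of all genes by 0.83, from -1.05 to -0.22, and changed the split from 972 higher and 1104 lower to 964 higher and 768 lower (46.8% to 55.7% higher). TMM without centring and listed-gene totals moved the median by 0.12 and -0.13, with no sign changed. Replicate numbers do not pair the libraries by the labels, and residuals of equal numbers correlated at -0.00061, 0.0712 and 0.116; with the replicate block 2071 genes were called, and 238 in the difference between series. Leaving out each library in turn gave 2058 to 2074 calls in HOM against HET, and 86 to 300 in Vav HOM against HET minus Lck HOM against HET DN3. Without 6 Lck libraries with epithelial transcripts 259 were called in that difference, and 234 without 8 Lck libraries with transcripts of other cells, a choice made after seeing the data, of which 203 and 170 were among the 303.

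The Vav change minus Lck change of Dapl1 was close to 0 (-0.01) and turned positive at 0.11 with TMM without centring, 0.011 with DESeq2, 0.13 without the 6 Lck libraries, 1.15 with the replicate block, and over the libraries left out in turn it ran from -0.46 to 0.58; it was never called. That of Zbtb16 became called with the replicate block (-2.22, edgeR adjusted p = 0.0328). The cause was not tested for either. Full depth of the Vav libraries is unknown, so genes at 0 counts give bounds only.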

Other observations

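Ion channel genes changed in both directions among the listed genes, 10 higher and 18 lower of 28 with a row out of 204. The share with a row was 13.7%, near the 12.9% of all genes tested in Lck, and 10.4% for solute carriers. Trpm1, a cation channel of retina and melanocytes named after its values were seen, had 4696, 3009 and 3970 normalised counts in HOM and 6.27, 4.67, 35.6 and 91.1 in HET. Cacnb1, a calcium channel subunit, fell to 14.6, 13.8 and 29.2 from 420, 555, 487 and 569. Kcnh3, a potassium channel, fell to 95.7, 87.6 and 68.1 from 630, 736, 894 and 1510. In Lck 15 of the 17 channel genes tested were called in the same direction, against 63.0% of all tested higher and 70.4% of all tested lower genes. Solute carriers had 39 of 375 genes listed, 16 higher and 23 lower, among them the nucleoside transporter Slc29a1, at 19332, 16622 and 15312 against 5818, 5350, 5453 and 6027, and Slc5a9, a sugar transporter, at 38.3, 25.6 and 69.1 against 1203, 1627, 1248 and 1804.

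Developmental ligands and receptors of the Wnt, FGF and BMP families were higher in 10 of the 11 cases with a row out of 74, a share of 14.9% with a row. Wnt6 had 1096, 1176 and 877 normalised counts in HOM and 0, 4.67, 4.75 and 8.19 in HET (7.81, SE 0.55), and it rose in Lck by 7.56 (edgeR adjusted p = 5.67e-07). Wnt5b had 1337, 1255 and 1097 against 325, 313, 442 and 299. Fgf3, named after its values were seen, rose further in Lck (6.598) than in Vav (1.96), with a difference of -4.63 (edgeR adjusted p = 0.0414); in Vav HET it stood at 307, 215, 103 and 130, and in HOM at 421, 952 and 833. Orphan and other G-protein-coupled receptors had 15 of 102 genes listed, 10 higher, such as Gpr20, at 498, 450 and 502 against 3.07 to 9.33.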
